A study of Mus musculus with 7 samples.

Results

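The 29 genes described here encode lysosomal hydrolases, their activators and transporters, and proteins of the lysosomal membrane. They were taken by name from a list of lysosomal genes. The rule used no measured value, but the members were chosen with earlier results of these data known. All 29 were among the 54735 gene symbols counted and among the 17636 genes that passed the filter on low counts. Counts came from bulk RNA sequencing of green fluorescent fibroblasts sorted from mouse hearts. MerCreMer, a recombinase that tamoxifen activates, was expressed from the periostin gene (genotype PostnMCM;R26eGFP) or from the Tcf21 gene (genotype Tcf21MCM;R26eGFP), so that cells in which the driver gene was active when tamoxifen was given kept the reporter. The groups were Postn-traced cells at 7 days after birth (Postn P7, n = 2), cells traced by Tcf21 at the same age (Tcf21 P7, n = 2) and at 30 days (Tcf21 P30, n = 3). Every group carried the R26eGFP reporter and pooled male and female animals. No Postn-traced library at 30 days was analysed here, and the dates of tamoxifen treatment are not given in the sources used here.

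Lysosomes are acidified organelles in which proteins, glycans, glycogen and lipids from endocytosis, phagocytosis and autophagy are broken down. Most soluble lysosomal enzymes are tagged with mannose 6-phosphate in the Golgi and carried by receptors to endosomes, and a proton pump, the V-ATPase, keeps the lumen acidic. Fibroblasts use the pathway to degrade internalised collagen and other matrix, and cathepsins are also secreted. Macrophages hold many of the same transcripts at high levels. The transcription factors TFEB and TFE3 are known to bind E-box sequences in the promoters of many lysosomal genes.

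Among the marker lists, that of fibroblasts had the highest sum in all 7 libraries. The 15 fibroblast markers summed to between 41018 and 57106 normalised counts (CPM, scaled to a common library size with TMM factors). Markers of other cell types were also counted, but sums of lists with different genes do not measure the shares of cell types. For the 20 macrophage markers the sum was 1554 and 1542 CPM in Tcf21 P7, 462 and 605 CPM in Postn P7, and 779, 519.8 and 542 CPM in the P30 libraries. Of these markers 16 were lower in Postn P7 than in Tcf21 P7 (80%, against 5.49% of all genes tested). In Tcf21 P30 15 were lower than in Tcf21 P7 (75%, against 15% of all genes). The 14 endothelial markers summed to 1965 CPM in Postn P7 replicate 1 and 4460 CPM in Tcf21 P30 replicate 1, against 1124 to 1363 CPM in the other 5 libraries. The sum of the 10 pericyte markers was 2365 and 1744 CPM for the Postn P7 libraries and between 934 and 1674 CPM for the other 5. The 2 nuclear RNAs Malat1 and Neat1 had a sum of 369 and 358 CPM in Tcf21 P7, between 1526 and 1659 CPM at P30, and 1215 and 1416 CPM in the Postn-traced libraries. The Tcf21 P7 libraries thus stood apart from the other 5 in macrophage transcripts and in these nuclear RNAs. Total counts were between 15207835 and 18519528 per library.

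The 29 genes together held 0.586% and 0.644% of the counts in Postn P7, 0.711% and 0.731% in Tcf21 P7, and 0.754%, 0.851% and 0.796% in Tcf21 P30. As a normalised sum this was 5415 and 6276 CPM for the Postn P7 libraries, 7300 and 7491 CPM for the Tcf21 P7 pair, and 7598, 8832 and 8104 CPM for the libraries of P30. The 3 groups did not overlap in this sum, with Postn P7 lowest and Tcf21 P30 highest. For 17 of the 29 genes the group means followed the same order, a share that was not counted over all genes. The median log2 CPM of the 29 was 6.86 and 7.21 in Postn P7. It overlapped between the Tcf21 groups, at 7.33 and 7.43 in Tcf21 P7 and 7.35, 7.52 and 7.43 in Tcf21 P30. In bulk libraries a lower share of a cell type and less RNA per cell cannot be told apart.

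**Figure D1:**
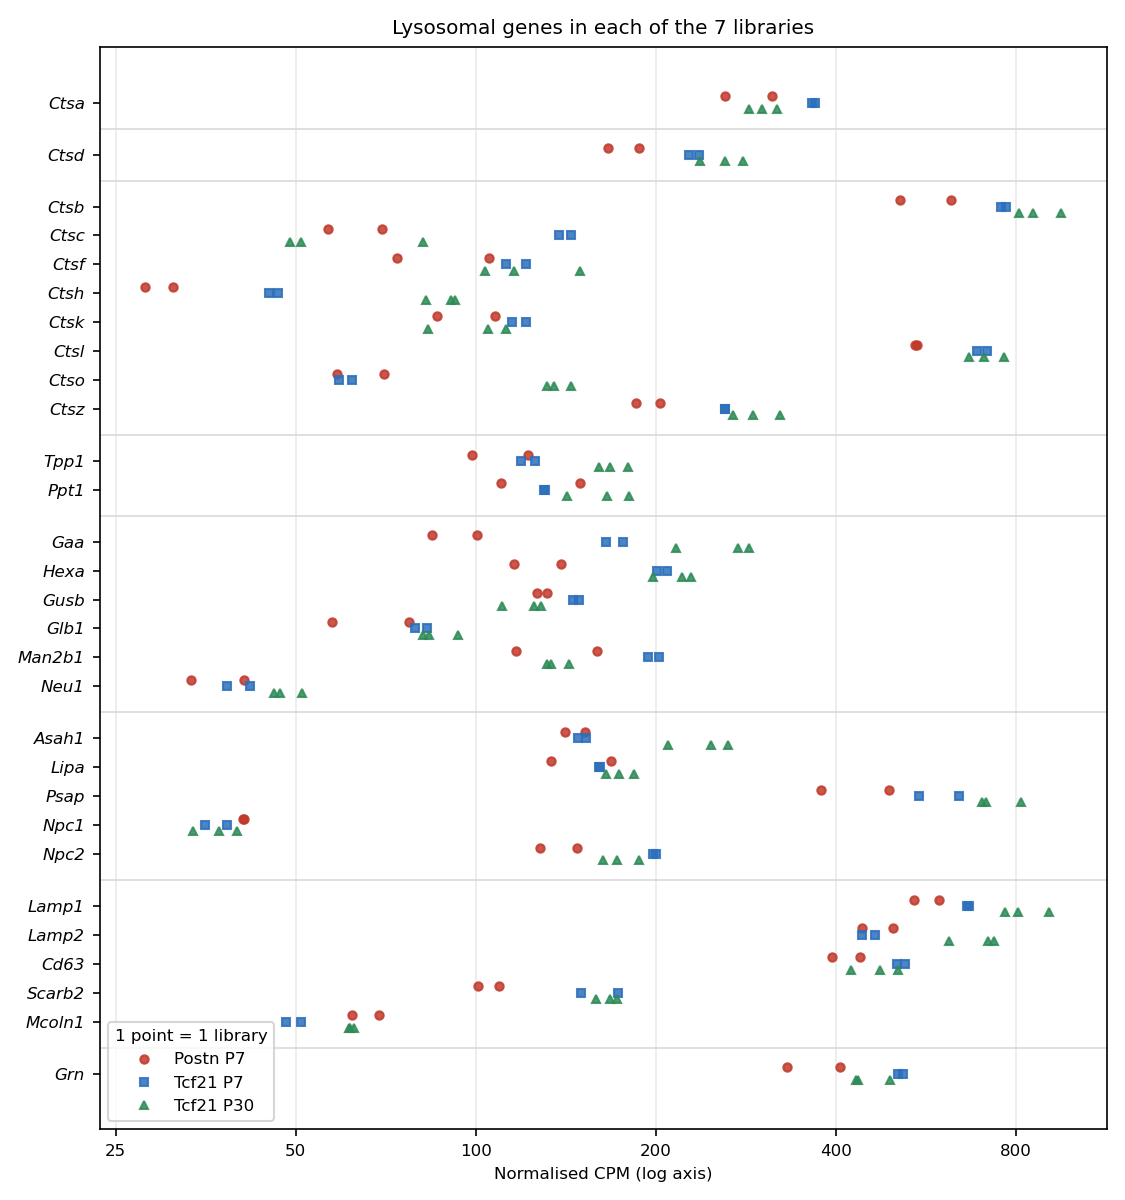
Normalised CPM on a log axis for the 29 lysosomal genes, grouped by role, with 1 point per library, circles for Postn P7, squares for Tcf21 P7 and triangles for Tcf21 P30. Most circles lie to the left of the squares. Ctsh, Ctso, Gaa, Asah1 and Lamp2 are among the genes whose triangles lie to the right of all other points, as do those of Tpp1, Lamp1, Psap, Ctsb and Ctsz.

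Within groups the libraries were unequally spread. The coefficient of variation of the 29 genes had a median of 12.6% in Postn P7, 2.79% in Tcf21 P7 and 7.77% in Tcf21 P30. In Postn P7, replicate 1 was below replicate 2 for 26 of the 29 genes. In Tcf21 P30, replicate 1 was the lowest of the 3 libraries for 23 genes and replicate 2 the highest for 26. Replicate 1 was the library with the most endothelial transcripts in both groups, and the part of this in the lysosomal values was not tested. Nothing in the labels states that the libraries of a group are from different animals. The p-values therefore rest on how far these libraries scatter, which may in part be technical.

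**Figure D2:**
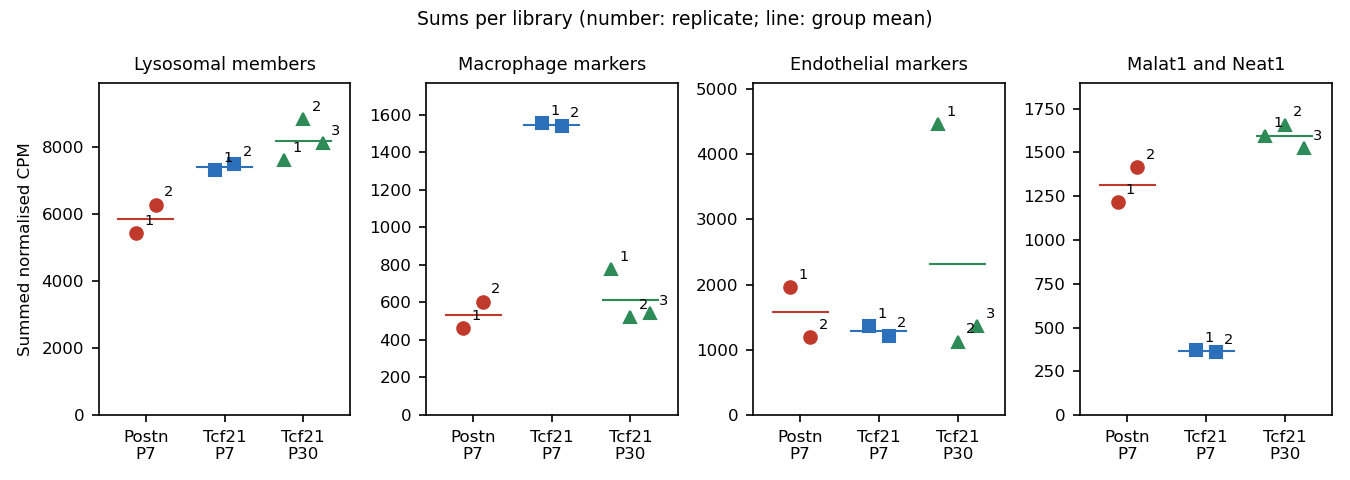
Summed normalised CPM per library, from 0, for the 29 lysosomal genes, 20 macrophage markers, 14 endothelial markers and the 2 nuclear RNAs, with the replicate number beside each point and a line at the group mean. The lysosomal sum orders the groups Postn P7, Tcf21 P7, Tcf21 P30, while the macrophage sum is highest, and the nuclear RNA sum lowest, in Tcf21 P7.

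Because TFEB and TFE3 targets share E-box letters, the promoter windows of the members were read. RefSeq promoter windows on GRCm38, each 250 bases before to 50 bases after a start site, were matched by symbol for 25 of the 29 genes. The E-box letters CACGTG, a palindrome, were present in the window of 8 of these 25 genes (32%), against 8.09% of 27025 genes in the table and 11.2% of the 11818 of them that were tested for expression. The longer form CACGTGAC, searched on both strands and always containing the shorter motif, was present for 5 genes (20%), against 2.55% and 4.43%. The windows of Mcoln1, Gaa, Ctsd, Ctsl and Lamp1 are printed because they hold the motif and belong to genes called in at least 1 comparison, each written 5′ to 3′ on the strand of the gene, with the E-box and any flanking letters of the longer form in capitals.
Mcoln1 (chr8:3500269-3500568, plus strand): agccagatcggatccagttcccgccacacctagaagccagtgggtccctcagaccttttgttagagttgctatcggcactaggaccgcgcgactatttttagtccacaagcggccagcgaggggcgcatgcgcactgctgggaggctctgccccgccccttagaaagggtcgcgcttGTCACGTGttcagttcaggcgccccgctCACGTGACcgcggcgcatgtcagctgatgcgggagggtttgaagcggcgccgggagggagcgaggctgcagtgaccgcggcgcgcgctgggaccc
Gaa (chr11:119267713-119268012, plus strand): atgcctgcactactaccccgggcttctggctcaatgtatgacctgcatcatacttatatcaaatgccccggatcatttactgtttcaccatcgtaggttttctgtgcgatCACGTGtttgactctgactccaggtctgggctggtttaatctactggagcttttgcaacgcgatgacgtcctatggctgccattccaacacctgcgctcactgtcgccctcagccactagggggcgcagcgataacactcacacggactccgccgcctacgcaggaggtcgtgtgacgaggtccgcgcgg
Ctsd (chr7:142387778-142388077, minus strand): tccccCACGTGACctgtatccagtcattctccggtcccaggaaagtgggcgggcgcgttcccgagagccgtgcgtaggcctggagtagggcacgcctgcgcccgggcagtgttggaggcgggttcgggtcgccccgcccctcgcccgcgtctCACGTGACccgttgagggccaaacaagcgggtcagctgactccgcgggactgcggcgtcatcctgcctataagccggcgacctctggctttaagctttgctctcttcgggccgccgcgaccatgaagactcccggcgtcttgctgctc
Ctsl (chr13:64370471-64370770, minus strand): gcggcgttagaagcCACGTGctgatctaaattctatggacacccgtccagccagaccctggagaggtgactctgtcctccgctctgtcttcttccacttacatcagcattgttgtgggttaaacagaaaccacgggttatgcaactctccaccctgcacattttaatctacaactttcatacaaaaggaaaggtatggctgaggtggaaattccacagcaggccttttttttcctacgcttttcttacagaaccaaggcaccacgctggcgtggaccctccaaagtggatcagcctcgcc
Lamp1 (chr8:13158911-13159210, plus strand): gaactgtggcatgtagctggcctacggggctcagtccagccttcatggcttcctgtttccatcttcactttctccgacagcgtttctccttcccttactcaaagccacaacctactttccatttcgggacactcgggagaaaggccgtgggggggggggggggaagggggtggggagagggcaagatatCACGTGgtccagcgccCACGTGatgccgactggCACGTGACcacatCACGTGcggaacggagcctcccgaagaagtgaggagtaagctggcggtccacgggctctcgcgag
The other genes with an E-box were Ctsa, Ctsf and Glb1. Of the 8 genes with the motif 5 were called in at least 1 of the 3 comparisons, and of the 17 genes whose windows lacked it 12 were. In the single comparisons 12%, 31.8% and 24.2% of all genes tested were called. The share of all genes called in at least 1 comparison was not counted, so these numbers have no background beside them. A match describes letters in the window and was not related to binding here.

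**Figure D3:**
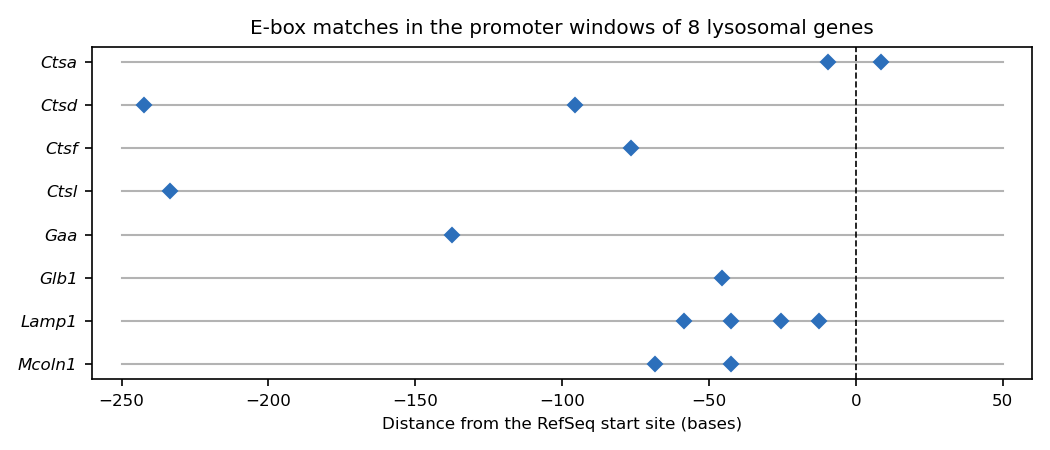
Positions of CACGTG in the promoter windows of 8 lysosomal genes, in bases from the RefSeq start site (dashed line), with 1 diamond per match and a grey line for the window. Lamp1 has 4 matches, the farthest 61 bases before its start, and Ctsa, Ctsd and Mcoln1 have 2 each.

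Postn P7 was set against Tcf21 P7 to ask how cells of the periostin lineage differ from the broader fibroblast lineage at 7 days. Of the 29 lysosomal genes 8 were lower in Postn P7 (Ctsc, Ctsh, Ctsz, Gaa, Hexa, Npc2, Scarb2 and Grn) and 1, Mcoln1, was higher. Over all 17636 genes tested 12% were called by edgeR's quasi-likelihood test with a Benjamini-Hochberg adjusted p under 0.05, 5.49% as lower and 6.52% as higher. The median log2 difference of the 29 was -0.36, against 0.0021 over all genes tested, and 25 of the 29 values were negative. The groups did not overlap for 22 of the 29 (64% of all genes), with Postn P7 below for 20 (32.5% of all genes) and above for 2 (31.4%). All 9 differences except that of Ctsc were under 2-fold. The 20 macrophage markers had a median of -1.55 in the same comparison, and none of them was at 0 in any library. All 10 pericyte markers had positive values, with a median of 1.00. Of these 9 were without overlap (31.4% of all genes in that direction) and 1 was called as higher (10%, against 6.52% of all genes in that direction). The part of either cell type in these counts was not tested. Scaling by library size alone, under which the median of all genes moved by 0.11, the median of the 29 was -0.25 and 6 were lower and 1 higher, while over all genes 1741 were higher and 472 lower, against 1149 and 969 with TMM. The calls did not hold without either Tcf21 P7 library or with these summed, where fewer of all genes were called as well. The median of the 29 was then -0.32 without either and -0.35 when summed. Fewer members and fewer of all genes were also called without either Postn P7 library. The median was -0.23 without Postn P7 replicate 1 and -0.49 without replicate 2. Each of these fits left a lone library in a group. Without Tcf21 P30 replicate 3 there were 5 calls, beside 1059 of all genes. DESeq2 called 15 members, beside 2512 of all genes, against 2118 in the main test.

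The comparison of Tcf21 P30 with Tcf21 P7 asked how Tcf21-traced cells differ between the 2 ages. Because the dates of tamoxifen treatment are not given, the cells marked at the 2 ages may not be the same population. The words rose and fell describe differences between these groups. Of the 29 genes 7 rose by P30 (Ctsh, Ctso, Tpp1, Gaa, Asah1, Lamp2 and Mcoln1) and 3 fell (Ctsc, Gusb and Man2b1). Over all genes tested 31.8% were called, 16.7% as higher and 15% as lower, so that the share of the 29 genes called, 34.5%, was near the background. The median of the 29 was 0.11, against 0.03 over all genes. In the same comparison the 20 macrophage markers had a median of -1.62, and the 2 nuclear RNAs a median of 2.46. The part of either in the lysosomal values was not tested. There was no overlap between the groups for 22 of the 29 (61.8% of all genes), with P30 above for 15 (31.8%) and below for 7 (29.9%). Without Tcf21 P30 replicate 3 the number of calls was 6, beside 3951 of all genes, against 5604 with all libraries. Fewer members and fewer of all genes were called without either Tcf21 P7 library or with these summed. The median of the 29 was then 0.14 without either and 0.11 when summed. More members and more of all genes were called without both endothelial-rich libraries, with a median of 0.19. Each of these fits except the first left a lone library in a group.

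Postn P7 and Tcf21 P30 differ in lineage and in age together, so that these cannot be told apart. Of the 29 genes 15 were lower in Postn P7, and 0 were higher by edgeR, DESeq2 or limma-voom, with 0 at an unadjusted p under 0.05 in that direction by edgeR. Over all genes tested 24.2% were called, 12.5% as lower and 11.7% as higher. The median of the 29 was -0.39, against -0.01 over all genes. There was no overlap for 19 of the 29 (50.6% of all genes), with Postn P7 below for 18 (25.9%) and above for 1 (24.7%). Leaving out each library in turn gave 10 to 17 calls, and without both endothelial-rich libraries 14 were lower and 1, Ctsc, was higher. With library size alone 14 of the 29 were lower, and over all genes 2802 were higher and 1725 lower, against 2070 and 2206 with TMM. In this comparison 3 of the 20 macrophage markers were called as lower (15%, against 12.5% of all genes in that direction) and 0 as higher. The list median was 0.07. The groups overlapped in the macrophage sum. The 10 pericyte markers were all positive, with a median of 1.15. Of these 6 were without overlap (24.7% of all genes in that direction) and 1 was called as higher (10%, against 11.7% of all genes in that direction). The part of pericyte transcripts in the lower lysosomal values was not tested. The 3 comparisons share libraries in pairs, and their values are given side by side for each gene below.

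**Figure D4:**
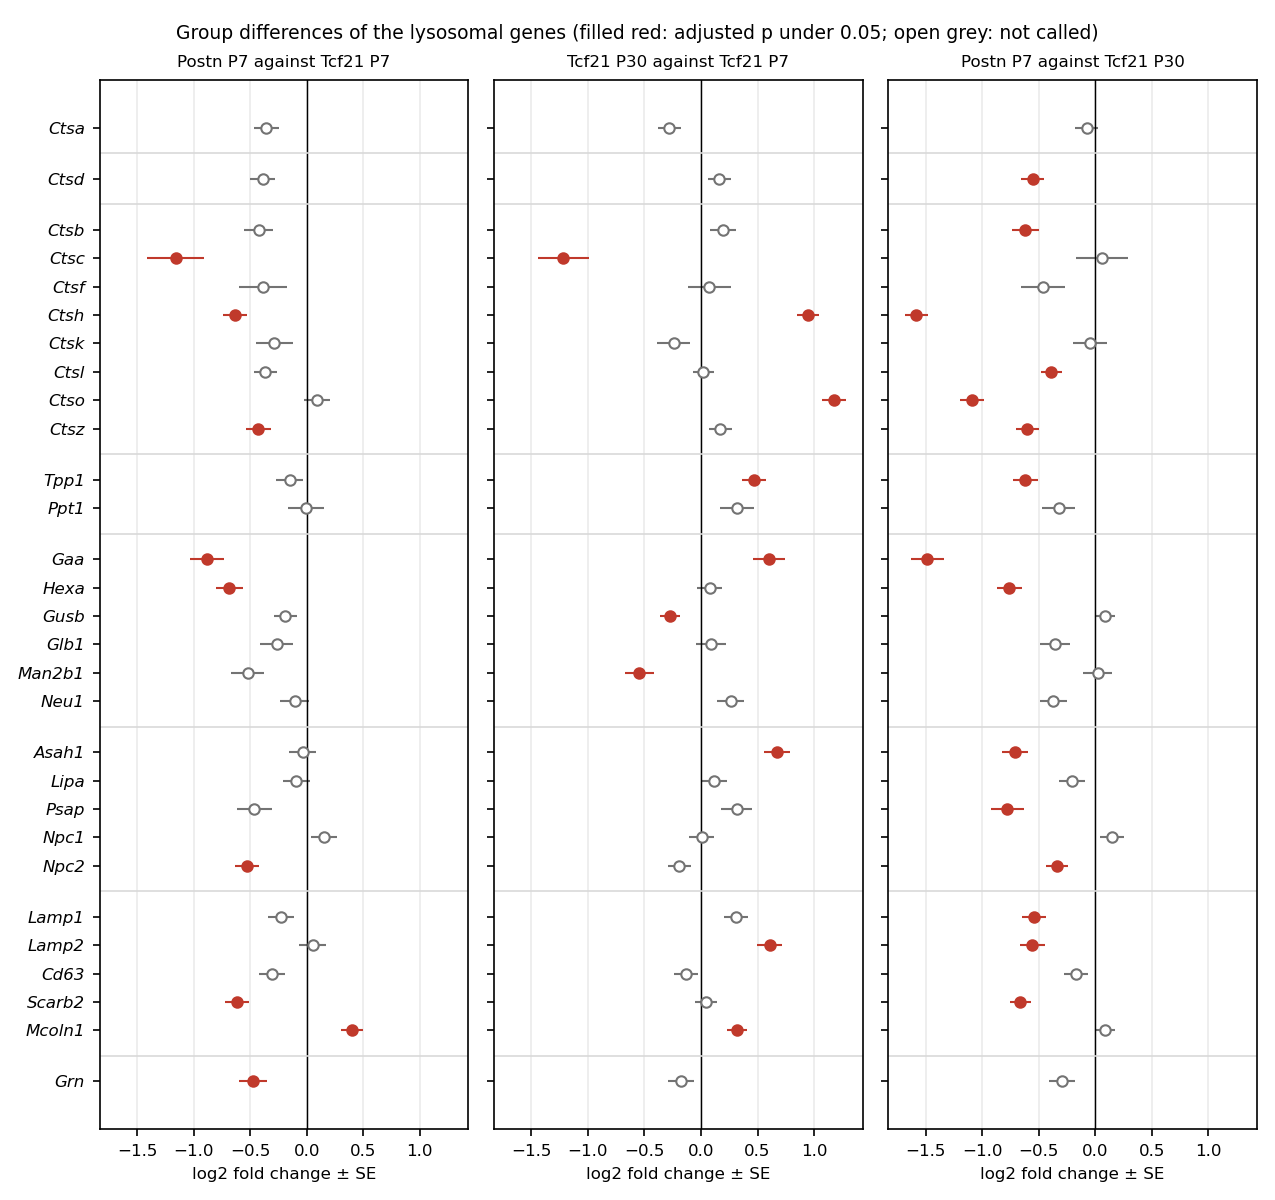
Log2 fold changes with their standard errors for the 29 lysosomal genes in the 3 comparisons, filled red where the adjusted p was under 0.05 and open grey otherwise. In the left and right panels most points lie below 0, while in the middle panel they lie on either side of it.

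The cysteine cathepsins are papain-like proteases, and 8 were measured. Of these 3 were lower in Postn P7 than in Tcf21 P7, 2 rose and 1 fell with age, and 5 were lower in Postn P7 than in Tcf21 P30. As shares of the 8 these were 37.5%, against 12% of all genes called at day 7, 37.5% with age, near the 31.8% of all genes, and 62.5%, against 24.2%. Cathepsin C, encoded by Ctsc (chromosome 7, 88278085 to 88310888, plus strand, protein coding), is a dipeptidyl peptidase known for activating serine proteases of immune cells. Its transcripts stood at 56.6 and 69.6 CPM in the Postn P7 libraries, 138 and 144 CPM in the Tcf21 P7 pair and 81.7, 48.9 and 51.1 CPM in the Tcf21 P30 libraries. The Tcf21 P7 libraries stood alone at the top, and the other groups overlapped. The log2 difference was -1.16 ± 0.25 (SE) in Postn P7 (edgeR adjusted p = 0.033) and -1.22 ± 0.22 in Tcf21 P30 (adjusted p = 0.0072), both against Tcf21 P7. The first call was lost in 6 of 16 alternatives and the second in 0. Tcf21 P7 was also the group with the highest macrophage sum, and within Tcf21 P30 replicate 1 was highest in Ctsc and in that sum. The part of macrophage transcripts in the Ctsc values was not tested.

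Cathepsin H, an aminopeptidase encoded by Ctsh (chromosome 9, 90054152 to 90076089, plus strand, protein coding), had a different pattern. Its level was 28.0 and 31.2 CPM in the Postn P7 libraries, 46.7 and 45.1 CPM in the Tcf21 P7 pair and 90.9, 92.4 and 82.6 CPM in the Tcf21 P30 libraries. The 3 groups did not overlap, and the P30 libraries were highest. The log2 difference was -0.63 ± 0.11 between Postn P7 and Tcf21 P7 (edgeR adjusted p = 0.014), 0.95 ± 0.10 between Tcf21 P30 and Tcf21 P7 (adjusted p = 0.00037) and -1.58 ± 0.10 between Postn P7 and Tcf21 P30 (adjusted p = 4.1e-05). The last was the largest difference among the 29 genes and amounts to 2.99-fold. The first of these calls was lost without Postn P7 replicate 1 and without either Tcf21 P7 library.

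Cathepsin O, encoded by Ctso (chromosome 3, 81932601 to 81956725, plus strand, protein coding), is a little studied member of the family. It was measured at 58.7 and 70.3 CPM in the Postn P7 libraries, 62.1 and 59.0 CPM in the Tcf21 P7 pair and 135, 144 and 132 CPM in the Tcf21 P30 libraries. The 4 libraries of day 7 overlapped, and all 3 libraries of day 30 were above them. The rise with age was 1.18 ± 0.11 on the log2 scale, or 2.26-fold (edgeR adjusted p = 0.00019), and it remained called in all 16 alternatives that were run. Postn P7 was below Tcf21 P30 with a difference of -1.09 ± 0.10 (adjusted p = 0.00024), and between the lineages at day 7 the difference was 0.09 ± 0.11 (adjusted p = 0.63).

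Cathepsin Z, a carboxypeptidase, had the highest level per length of the cysteine cathepsins, at 178 CPM per kb of exon over all libraries. Ctsz was measured at 185 and 203 CPM in the Postn P7 libraries, 261 and 261 CPM in the Tcf21 P7 pair and 269, 323 and 291 CPM in the Tcf21 P30 libraries. Postn P7 was lowest without overlap. The difference from Tcf21 P7 was -0.43 ± 0.11 (edgeR adjusted p = 0.044), which failed the threshold under all 3 other scalings, and that from Tcf21 P30 was -0.60 ± 0.10 (adjusted p = 0.0042).

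Ctsb and Ctsl encode the broadly expressed endopeptidases cathepsins B and L. Ctsb was measured at 512 and 623 CPM in the Postn P7 libraries, 768 and 755 CPM in the Tcf21 P7 pair and 809, 951 and 854 CPM in the Tcf21 P30 libraries. Ctsl was measured at 546 and 542, 688 and 714, and 666, 763 and 706 CPM in the same groups. For both genes the Postn P7 libraries were the lowest, without overlap with either other group. Only the difference from Tcf21 P30 passed the test, at -0.62 ± 0.12 for Ctsb (edgeR adjusted p = 0.0077) and -0.39 ± 0.10 for Ctsl (adjusted p = 0.021), while against Tcf21 P7 the values were -0.42 ± 0.13 and -0.37 ± 0.10 (adjusted p = 0.07 and 0.056). The Ctsl call was lost in 8 of 16 alternatives, among them upper-quartile factors and leaving out either Postn P7 library, with adjusted p up to 0.095. Antisense and opposite-strand transcripts overlap 26.8% of the Ctsl exons (Gm47123) and 12.8% of the Ctsb exons (Fdft1), and reads there cannot be assigned without the strand setting. Ctsk, which encodes the collagen-degrading cathepsin K of osteoclasts and fibroblasts, and Ctsf, a cathepsin with a long propeptide, were called in no comparison. Their differences between Postn P7 and Tcf21 P7 were -0.28 ± 0.16 and -0.39 ± 0.21.

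Cathepsins of the other catalytic classes were Ctsd, an aspartic protease, and Ctsa, a serine carboxypeptidase that also protects beta-galactosidase and neuraminidase. Ctsd was measured at 166 and 187 CPM in the Postn P7 libraries, 236 and 227 CPM in the Tcf21 P7 pair and 237, 279 and 261 CPM in the Tcf21 P30 libraries. Postn P7 was again lowest without overlap, with -0.39 ± 0.11 against Tcf21 P7 (edgeR adjusted p = 0.056, not called) and -0.55 ± 0.10 against Tcf21 P30 (adjusted p = 0.0061). The gene model Gm49369 shares 34.4% of the Ctsd exons on the same strand and had 0 counts in every library. How the counting treated reads shared by both is not given in the sources used here. Ctsa was measured at 261 and 312 CPM in the Postn P7 libraries, 369 and 364 CPM in the Tcf21 P7 pair and 301, 318 and 286 CPM in the Tcf21 P30 libraries. Tcf21 P7 was highest here, and the differences of -0.36 in Postn P7 and -0.28 in Tcf21 P30 were not called (adjusted p = 0.076 and 0.068).

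Tpp1 and Ppt1 encode tripeptidyl peptidase and palmitoyl-protein thioesterase, the enzymes missing in late infantile and infantile forms of neuronal ceroid lipofuscinosis. Tpp1 was measured at 98.5 and 122 CPM in the Postn P7 libraries, 119 and 125 CPM in the Tcf21 P7 pair and 161, 179.7 and 167 CPM in the Tcf21 P30 libraries. The groups of day 7 overlapped, and the libraries of day 30 were above them. Tpp1 rose with age by 0.47 ± 0.11 (edgeR adjusted p = 0.014) and was lower in Postn P7 than in Tcf21 P30, with a difference of -0.62 ± 0.11 (adjusted p = 0.0053). Ppt1, the higher of the pair per length at 39.2 CPM per kb, was measured at 110.0 and 149.6 CPM in the Postn P7 libraries, 130.4 and 130.1 CPM in the Tcf21 P7 pair and 142, 180.0 and 165 CPM in the Tcf21 P30 libraries. The Postn P7 libraries lay on either side of Tcf21 P7, and no comparison was called.

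Of 6 glycosidases 2 were lower in Postn P7 than in either Tcf21-traced group. This share, 33.3%, stands beside 12% of all genes called against Tcf21 P7 and 24.2% against Tcf21 P30. With age 1 rose and 2 fell (50% called, against 31.8% of all genes). Gaa (chromosome 11, 119267887 to 119285454, plus strand, protein coding) encodes acid alpha-glucosidase, which degrades glycogen and is deficient in Pompe disease. Gaa was measured at 84.5 and 101 CPM in the Postn P7 libraries, 165 and 176 CPM in the Tcf21 P7 pair and 216, 286 and 274 CPM in the Tcf21 P30 libraries. The groups did not overlap and followed the order of the whole set. The log2 difference was -0.88 ± 0.15 for Postn P7 against Tcf21 P7 (edgeR adjusted p = 0.014), 0.60 ± 0.14 for Tcf21 P30 against Tcf21 P7 (adjusted p = 0.013) and -1.48 ± 0.14 for Postn P7 against Tcf21 P30 (adjusted p = 0.00025), the last a 2.80-fold difference that remained called in all 16 alternatives. The first 2 calls were lost without either Tcf21 P7 library.

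Hexa encodes the alpha subunit of beta-hexosaminidase, which degrades the ganglioside GM2, and had the highest level per length of the glycosidases, at 93.9 CPM per kb. Hexa transcripts stood at 116 and 139 CPM in the Postn P7 libraries, 201 and 208 CPM in the Tcf21 P7 pair and 198, 229 and 221 CPM in the Tcf21 P30 libraries. The Tcf21-traced groups overlapped, and the Postn P7 libraries were below both. The difference was -0.68 ± 0.12 from Tcf21 P7 (edgeR adjusted p = 0.014) and -0.76 ± 0.11 from Tcf21 P30 (adjusted p = 0.0019). Tmem202, on the opposite strand, overlaps 12.8% of the Hexa exons.

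Man2b1 and Gusb moved the other way with age. Man2b1, the lysosomal alpha-mannosidase, was measured at 117 and 159.6 CPM in the Postn P7 libraries, 194 and 202 CPM in the Tcf21 P7 pair and 131, 143 and 134 CPM in the Tcf21 P30 libraries. It fell by 0.54 on the log2 scale with age (SE 0.13, edgeR adjusted p = 0.015), and the difference of -0.52 ± 0.14 between the lineages missed the threshold (adjusted p = 0.052). Gusb, beta-glucuronidase, was measured at 126 and 132 CPM in the Postn P7 libraries, 145 and 149 CPM in the Tcf21 P7 pair and 111, 128 and 125 CPM in the Tcf21 P30 libraries. For both genes Tcf21 P7 was above the other 2 groups, which overlapped. The change of Gusb with age, -0.28 ± 0.09, was called at an adjusted p of 0.049 by edgeR and lost its call in 13 of 16 alternatives. Glb1 (beta-galactosidase, often used as a histochemical mark of senescent cells) and Neu1 (a sialidase) were called in no comparison, with differences from Tcf21 P7 of -0.27 ± 0.15 and -0.11 ± 0.13 in Postn P7 and 0.09 ± 0.13 and 0.26 ± 0.12 in Tcf21 P30.

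Of 5 genes of lipid handling 1 was lower in Postn P7 than in Tcf21 P7, 1 rose with age, and 3 were lower in Postn P7 than in Tcf21 P30. As shares of the 5 these were 20%, 20% and 60%, against 12%, 31.8% and 24.2% of all genes, so that the share with age was below the background. Psap encodes prosaposin, the precursor of the saposins that present sphingolipids to their hydrolases, and had the highest level per length of this role at 223 CPM per kb. Its level was 377 and 490.0 CPM in the Postn P7 libraries, 551 and 643 CPM in the Tcf21 P7 pair and 701, 815 and 712 CPM in the Tcf21 P30 libraries. No 2 groups overlapped. Psap was lower in Postn P7 than in Tcf21 P30, with a difference of -0.78 ± 0.14 (edgeR adjusted p = 0.006), whereas the differences from Tcf21 P7 were -0.46 ± 0.15 in Postn P7 (adjusted p = 0.087) and 0.31 ± 0.14 in Tcf21 P30 (adjusted p = 0.13), neither of them called.

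Asah1, acid ceramidase, was measured at 141 and 152 CPM in the Postn P7 libraries, 148 and 153 CPM in the Tcf21 P7 pair and 209, 263 and 247 CPM in the Tcf21 P30 libraries. The groups of day 7 overlapped and the libraries of day 30 were higher, with a rise of 0.67 ± 0.11 (edgeR adjusted p = 0.0034) and a difference of -0.71 ± 0.11 between Postn P7 and Tcf21 P30 (adjusted p = 0.003). Npc1 and Npc2 pass cholesterol out of the lysosome, Npc2 as the soluble carrier and Npc1 as the membrane protein. Npc2 was measured at 128 and 148 CPM in the Postn P7 libraries, 200.1 and 197 CPM in the Tcf21 P7 pair and 163, 187 and 172 CPM in the Tcf21 P30 libraries. All 3 groups were separate, and Postn P7 was lowest in Npc2, with a difference of -0.53 ± 0.11 from Tcf21 P7 (edgeR adjusted p = 0.023) and of -0.34 ± 0.10 from Tcf21 P30 (adjusted p = 0.041). The latter call was lost in 12 of 16 alternatives. Npc1 was measured at 40.9 and 40.8 CPM in the Postn P7 libraries, 38.3 and 35.3 CPM in the Tcf21 P7 pair and 33.6, 37.2 and 39.9 CPM in the Tcf21 P30 libraries, and was called in no comparison. The partners thus differed in their calls, a contrast that was not itself tested. Lipa, the acid lipase of cholesteryl esters, was likewise not called, with -0.09 ± 0.12 in Postn P7 and 0.11 ± 0.11 in Tcf21 P30 against Tcf21 P7.

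Of 5 membrane proteins 1 was lower and 1 higher in Postn P7 than in Tcf21 P7, 2 rose with age, and 3 were lower in Postn P7 than in Tcf21 P30. As shares of the 5 these were 40%, 40% and 60%, against 12%, 31.8% and 24.2% of all genes. Lamp1, a heavily glycosylated protein that lines the lysosome, had the highest level per length of all 29 genes, at 264 CPM per kb. Its level was 539.7 and 594 CPM in the Postn P7 libraries, 667 and 663 CPM in the Tcf21 P7 pair and 766, 907 and 806 CPM in the Tcf21 P30 libraries. The groups did not overlap, and the difference of -0.54 ± 0.11 between Postn P7 and Tcf21 P30 was called (edgeR adjusted p = 0.0081), while that of 0.31 ± 0.11 with age was not (adjusted p = 0.055).

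Lamp2 (chromosome X, 38401357 to 38456454, minus strand, protein coding) encodes a relative of Lamp1 that is needed for autophagosome fusion and chaperone-mediated autophagy, and is lost in Danon disease, a cardiomyopathy. Lamp2 transcripts stood at 442 and 498 CPM in the Postn P7 libraries, 441 and 464 CPM in the Tcf21 P7 pair and 619, 734 and 717 CPM in the Tcf21 P30 libraries. The libraries of day 7 overlapped between the lineages (0.05 ± 0.12, edgeR adjusted p = 0.8), and all of those of day 30 were higher. The rise with age was 0.61 ± 0.11 (adjusted p = 0.0051), and Postn P7 was below Tcf21 P30, with a difference of -0.56 ± 0.11 (adjusted p = 0.0087).

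Scarb2, the receptor that carries glucocerebrosidase to the lysosome, was measured at 109 and 101 CPM in the Postn P7 libraries, 149.8 and 173 CPM in the Tcf21 P7 pair and 159, 172 and 168 CPM in the Tcf21 P30 libraries. The Tcf21-traced groups overlapped, and Postn P7 was below both, with differences of -0.62 ± 0.10 from Tcf21 P7 (edgeR adjusted p = 0.014) and -0.66 ± 0.10 from Tcf21 P30 (adjusted p = 0.002). Cd63, a tetraspanin of late endosomes and exosomes, was called in no comparison, with -0.30 ± 0.12 in Postn P7 and -0.13 ± 0.10 in Tcf21 P30 against Tcf21 P7.

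Mcoln1 (chromosome 8, 3500457 to 3515232, plus strand, protein coding) encodes the calcium channel TRPML1, whose calcium release activates TFEB. It was measured at 62.2 and 68.8 CPM in the Postn P7 libraries, 48.1 and 51.1 CPM in the Tcf21 P7 pair and 62.5, 61.3 and 61.5 CPM in the Tcf21 P30 libraries. The Tcf21 P7 libraries were below all others, and the other 2 groups overlapped. Mcoln1 was higher by 0.40 ± 0.10 in Postn P7 (edgeR adjusted p = 0.037) and by 0.32 ± 0.09 in Tcf21 P30 (adjusted p = 0.029), the sole member lowest in Tcf21 P7 with a call in each of these comparisons. The nuclear RNAs Malat1 and Neat1 were lowest in the same libraries, at 354 and 341 CPM for Malat1 in Tcf21 P7 against 1161 and 1374 CPM in Postn P7, and their part in the Mcoln1 values was not tested. The calls of Mcoln1 were lost in 8 and 6 of 16 alternatives.

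Grn encodes progranulin, a secreted and lysosomal protein that is cleaved into granulins and is abundant in macrophages. It was measured at 331 and 406 CPM in the Postn P7 libraries, 507 and 518 CPM in the Tcf21 P7 pair and 432, 492 and 435 CPM in the Tcf21 P30 libraries. The groups did not overlap, with Tcf21 P7 highest and Postn P7 lowest. The difference of -0.48 ± 0.13 in Postn P7 against Tcf21 P7 was called (edgeR adjusted p = 0.047) and lost its call in 9 of 16 alternatives, among them each of the other 3 scalings.

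In all, 9 members were called in no comparison, a share that was not counted over all genes. The 9 were Ctsa, Ctsf, Ctsk, Ppt1, Glb1, Neu1, Lipa, Npc1 and Cd63. Their differences from Tcf21 P7 ran from -0.39 to 0.15 in Postn P7 and from -0.28 to 0.32 in Tcf21 P30. Per kb of exon the levels of the 29 spanned from 3.36 CPM per kb for Npc1 and 7.86 for Mcoln1 to 223 for Psap and 264 for Lamp1.

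The pathway around these genes was read through 7 further lists with 102 genes. Against Tcf21 P30 the shares called in Postn P7, given below as counts, stand beside 24.2% of all genes (12.5% lower, 11.7% higher). The 25 other lysosomal hydrolases had 4 lower members in Postn P7 than in Tcf21 P7, with a list median of -0.28 (16% lower, against 5.49% of all genes), namely the phospholipase Pla2g15 (-0.76), Naglu, which degrades heparan sulfate (-0.68), the asparaginyl endopeptidase Lgmn (-0.57) and arylsulfatase A, Arsa (-0.49). With age 6 of them rose and 2 fell, with a median of 0.10, and the share called, 32%, was at that of all genes, 31.8%. Ids, iduronate sulfatase, rose from 75.0 and 78.7 CPM to 152, 145 and 162 CPM (0.99 ± 0.10), and Scpep1 rose by 0.65. Lgmn fell from 156 and 161 CPM to 80.2, 84.3 and 76.8 CPM (-0.98 ± 0.09), and the macrophage-enriched cathepsin Ctss from 50.3 and 47.4 to 29.5, 18.5 and 15.4 CPM (-1.21 ± 0.30). Ctss was highest in the libraries with the highest macrophage sum. In Postn P7 against Tcf21 P30, 12 of the 25 were lower and 1 higher, with a median of -0.40, among them the heparan sulfamidase Sgsh (-0.92), Ids (-0.89) and acid sphingomyelinase, Smpd1 (-0.81).

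Of 15 other membrane proteins, Slc38a9, an arginine transporter that signals to mTORC1, was higher in Postn P7 (19.1 and 22.5 CPM against 11.5 and 10.3 CPM, 0.93 ± 0.20) and in Tcf21 P30 (1.02 ± 0.19) than in Tcf21 P7. Laptm4a (-0.48) and the cystine transporter Ctns (-0.42) were lower in Postn P7, and the endolysosomal cation channel gene Tpcn1 (0.73) and Ostm1 (0.38) rose with age. These calls amount to 20% of the list in each comparison, against 12% of all genes between the lineages and 31.8% with age. The median of this list in Postn P7 against Tcf21 P7 was -0.05, and 0.06 with library size alone as the scaling. Against Tcf21 P30, 5 of the 15 were lower in Postn P7, with Cln3 (-0.56), Ctns (-0.50), Litaf (-0.44) and the chloride-proton exchanger Clcn7 (-0.39) the largest. Of 16 V-ATPase genes 4 were lower in Postn P7 than in Tcf21 P7, with a list median of -0.20 (25% lower, against 5.49% of all genes), namely Atp6v1f (-0.42), Atp6v0e (-0.41), Atp6v0d1 (-0.37) and Atp6v1e1 (-0.36). Each of these 4 calls was lost with library size alone as the scaling. The accessory subunits Atp6ap1 (0.52) and Atp6ap2 (0.39) rose with age and Atp6v0e fell (-0.31), so that 18.8% were called, below the 31.8% of all genes. Against Tcf21 P30, 6 of the 16 were lower in Postn P7 (median -0.26), led by Atp6ap1 (-0.76), Atp6v1f (-0.49), Atp6v0c (-0.45) and Atp6v0b (-0.41).

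Of 12 genes for sorting to the lysosome 4 rose and 3 fell with age, or 58.3%, against 31.8% of all genes. Sort1, which encodes the sorting receptor sortilin, fell from 167 and 189 CPM in Tcf21 P7 to 67.0, 59.5 and 61.9 CPM in Tcf21 P30 (-1.50 ± 0.09, edgeR adjusted p = 4.8e-05). Igf2r, the large mannose 6-phosphate receptor that also clears IGF2 and is imprinted, fell from 622 and 571 CPM to 319.5, 275 and 322 CPM (-0.96 ± 0.11). Gnptg, a subunit of the enzyme that makes the mannose 6-phosphate tag, rose from 36.0 and 30.9 to 60.9, 70.5 and 74.3 CPM (1.04 ± 0.13), and the adaptor gene Gga2 fell by 0.78 on the log2 scale. In Postn P7 against Tcf21 P7, Gga3, an adaptor for the mannose 6-phosphate receptors, was higher (0.76) and Sort1 lower (-0.42), or 16.7% of the list against 12% of all genes. Against Tcf21 P30, Postn P7 was lower in Gnptg (-1.19) and Nagpa, the enzyme that completes the tag (-1.04), and higher in Sort1 (1.09) and Igf2r (0.60), with 3 of 12 higher and 2 lower. The 7 calls with age were all kept under each of the other 3 scalings.

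Among 4 inhibitors of cathepsins, Cst6 (cystatin M) rose from 1.65 and 2.02 CPM in Tcf21 P7 to 16.6, 16.4 and 15.2 CPM in Tcf21 P30, a change of 3.13 ± 0.21 (edgeR adjusted p = 5.9e-05), with 1.43 and 1.22 CPM in Postn P7. The 3 libraries of day 30 were above all others. Cst3, the abundant secreted cystatin C, was measured at 355 and 398 CPM in the Postn P7 libraries, 479.8 and 482 CPM in the Tcf21 P7 pair and 628, 655 and 652 CPM in the Tcf21 P30 libraries. Cst3 rose with age by 0.42 ± 0.09, and Cstb was lower in Postn P7 than in Tcf21 P7 (-0.40). Against Tcf21 P30, Cst6 (-3.59), Cst3 (-0.78) and Cstb (-0.37) were lower in Postn P7, and Stfa1 was called higher at 1.48 and 3.39 CPM in the Postn P7 libraries, 0.796 and 0.115 CPM in the Tcf21 P7 pair and 0.189, 0 and 0 CPM in the Tcf21 P30 libraries. Stfa1 belongs to a family of near-identical stefin copies, and its few reads are uncertain for that reason.

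Of 15 genes for MiT transcription factors and nutrient sensing at the lysosome, 6 were lower in Postn P7 than in Tcf21 P7, with a list median of -0.36 (40% lower, against 5.49% of all genes). The largest called were the Rag GTPase gene Rraga (-0.78), Lamtor4 (-0.72) and Lamtor2 (-0.49), which encode subunits of its lysosomal anchor Ragulator, and Tfeb (-0.51). Tfeb itself was measured at 33.5 and 34.9 CPM in the Postn P7 libraries, 47.3 and 49.97 CPM in the Tcf21 P7 pair and 40.1, 48.6 and 40.7 CPM in the Tcf21 P30 libraries, and its call did not hold when scaled by upper-quartile factors (adjusted p = 0.065) or by library size alone (adjusted p = 0.062). With age Lamtor3 rose (0.37), and Tfec (-2.61), Rptor (-0.41) and Lamtor1 (-0.30) fell, Tfec from 1.08 and 1.73 CPM in Tcf21 P7, a level of few reads. The 26.7% called with age was below the 31.8% of all genes. Against Tcf21 P30, Mitf (-1.04), Lamtor4 (-0.63), Tfe3 (-0.40) and Lamtor5 (-0.30) were lower in Postn P7.

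Of 15 autophagy genes 5 were lower in Postn P7 than in Tcf21 P7, with a median of -0.17 (33.3% lower, against 5.49% of all genes), including Gabarapl1 (-0.59) and Gabarap (-0.54), which encode ubiquitin-like proteins of the autophagosome membrane, Wipi2 (-0.47) and the cargo receptor Sqstm1 (-0.45). With age Uvrag (0.37) and Gabarapl1 (0.34) rose and Wipi1 (-0.67), the kinase gene Ulk1 (-0.61) and Wipi2 (-0.38) fell, and the 33.3% called was near the 31.8% of all genes. Against Tcf21 P30, 5 were lower and 2 higher in Postn P7, with Gabarapl1 (-0.93), Wipi1 (0.59), Sqstm1 (-0.59) and Ulk1 (0.58) the largest. The calls of these 7 lists moved with the libraries used and with the scaling. In Postn P7 against Tcf21 P7, 23 of the 102 genes were lower with TMM, and 22 with size factors as in DESeq2. Under upper-quartile factors 15 were lower, where the lower calls over all genes moved from 969 to 647. Scaled by library size alone, 9 were lower, beside 472 of all genes. Rraga, Lamtor2, Laptm4a, Ctns, Pla2g15, Sort1 and Cstb were among the calls lost in that last fit. With age 32 of the 102 genes were called, beside 31.8% of all genes. Without Tcf21 P30 replicate 3 it was 18, where the calls over all genes moved from 5604 to 3951. Fewer of these and of all genes were also called with age without either Tcf21 P7 library. Of the 102 genes 25 were called between the lineages at day 7, beside 12% of all genes. Without Tcf21 P30 replicate 3 it was 7, where the calls over all genes moved from 2118 to 1059. Fewer of these and of all genes were called there without either Postn P7 library. With the Tcf21 P7 libraries summed, which left a lone library in that group, the calls between the lineages at day 7 did not hold. Fewer of all genes were called there as well.

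**Figure D5:**
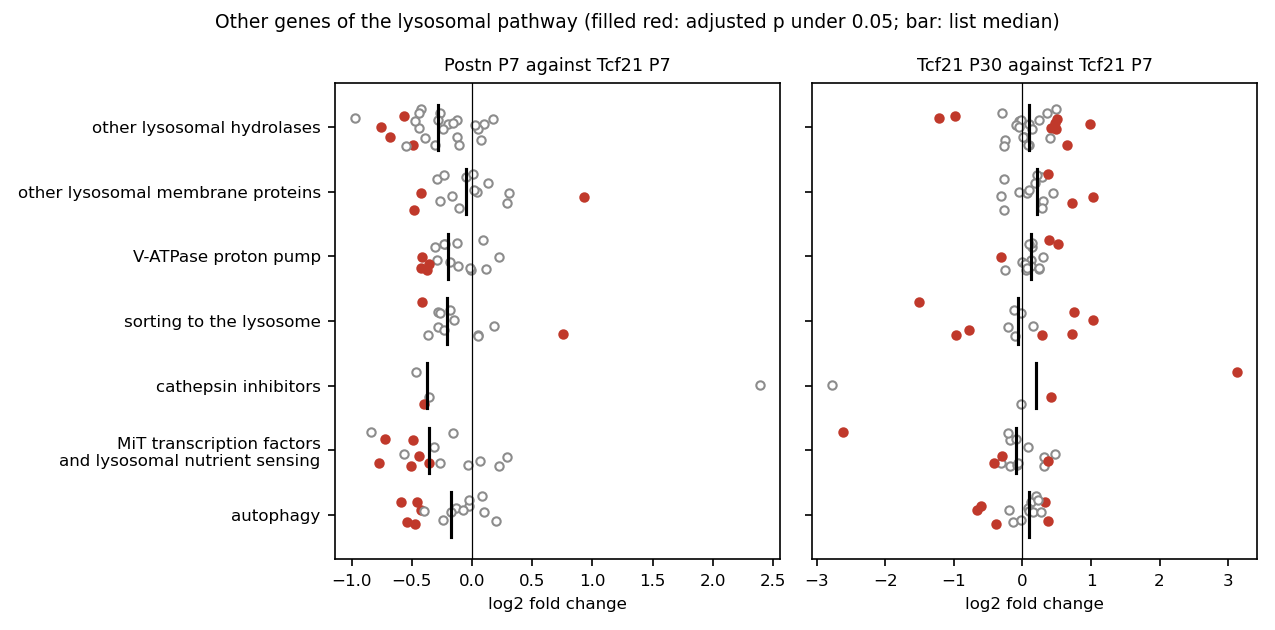
Log2 fold changes of 102 further genes of the lysosomal pathway in 7 lists, for Postn P7 against Tcf21 P7 (left) and Tcf21 P30 against Tcf21 P7 (right, on its own axis), filled red where the adjusted p was under 0.05, with a black bar at each list's median. With the TMM scaling shown, the 7 medians lie below 0 on the left (that of the other membrane proteins is 0.06 with library size alone), and the isolated point at the far right of the right panel is Cst6.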

How the data were processed

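RNA from sorted cells of 7 libraries in 3 groups was sequenced, and the authors deposited whole-number counts per gene symbol for each library. The reads were processed with STAR and GRCm38, per the submitters' processing notes; the version of STAR, the counting program, its annotation and its strand setting are not given in the sources used here. Deposited counts entered the tests unchanged.

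Genes were filtered with filterByExpr (17636 of 54735 symbols kept, 21563 had 0 counts in every library), scaled by TMM factors and tested with edgeR 4.0.16 in R 4.3.3 (robust quasi-likelihood fit of 3 group means over all 7 libraries, no replicate block). A gene was called at a Benjamini-Hochberg adjusted p under 0.05, with all tested genes in the adjustment. Standard errors were the size of the log2 fold change divided by the square root of the quasi-likelihood F, and CPM were computed by edgeR with the TMM factors. Exon length for CPM per kb, gene positions and overlaps came from GENCODE M21 (54183 symbols matched), and promoter windows from RefSeq on GRCm38.p6. Replicate pairs differed beyond counting error (chi-square per degree of freedom of 3.43 for Tcf21 P7 and 9.9 to 38.1 for the other pairs), so no library was taken as deposited more than once. This does not show that libraries came from separate animals or pools, and the Tcf21 P7 pair was the closest.

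The alternatives were 3 other scalings, no filter, DESeq2 1.42.0, limma-voom (limma 3.58.1), a replicate block, each library left out, the Tcf21 P7 libraries summed, and the endothelial-rich Postn P7 replicate 1 and Tcf21 P30 replicate 1 left out together. The members and all gene lists were chosen with earlier results of these data known. Named with values in every library were the members called in any comparison and the member of each role with the highest CPM per kb. The other members appear by their values of change, except Npc1, which is shown in full beside Npc2 and was chosen after its values were seen. From the further lists up to 4 of the largest called changes were named per comparison, and 1 gene of these lists is not reported here. The marker lists were macrophage, endothelial, fibroblast, pericyte, cardiomyocyte, erythroid and Schwann cell genes and the nuclear RNAs. The cardiomyocyte markers summed to between 687 and 1629 CPM per library, the erythroid markers to between 68 and 619.6, and the Schwann cell markers to between 8.14 and 31.1.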

Additional observations from a re-analysis of the deposited data

How the results depend on the processing

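No call of the 29 genes changed sign under the 16 alternatives. Of 1392 values of single genes 1236 kept their side of the threshold, among them 43 uncalled values from 14 genes that changed sign, while 113 lost a call and 43 gained one. The calls kept in all 16 were those of Ctsc, Ctsh and Ctso in Tcf21 P30 against Tcf21 P7, and of Ctsd, Ctsh, Ctso, Ctsz, Tpp1, Gaa, Hexa, Asah1, Psap and Scarb2 in Postn P7 against Tcf21 P30.

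For Postn P7 against Tcf21 P7 (9 members and 2118 of all genes called), DESeq2 called 15 members, testing without a filter called 3442 of all genes, summing the Tcf21 P7 libraries left 0 members and 123 of all genes, and leaving out both endothelial-rich libraries gave 3750 of all genes. Leaving out each library in turn gave 0 to 13 members and 111 to 3250 of all genes, with 1 member without Postn P7 replicate 1, 5 without its replicate 2, 0 without either Tcf21 P7 library and 5 without Tcf21 P30 replicate 3.

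For Tcf21 P30 against Tcf21 P7 (10 members, 5604 of all genes), summing gave 3 members and 2463 of all genes, and 16 members were called without both endothelial-rich libraries. Leaving out each library gave 3 to 11 members and 2418 to 6063 of all genes, with 3 and 4 members without Tcf21 P7 replicate 1 and 2. For Postn P7 against Tcf21 P30 (15 members, 4276 of all genes), it gave 10 to 17 members and 2810 to 5072 of all genes, with 2810 without Postn P7 replicate 1. The lone library of a group was then assumed to vary like the others, and the cause of these moves was not tested beyond the smaller number of libraries.

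The labels do not say that a replicate number marks shared animals or days, and the numbers were not used as a pairing. Deviations of same-numbered libraries correlated at 0.08 between Postn P7 and Tcf21 P7 and at 0.05 and 0.04 between the Tcf21 groups, but at 0.29 and 0.31 between Postn P7 and Tcf21 P30, where replicate 1 is the endothelial-rich library of both groups. With a replicate block 8, 9 and 14 members were called in the 3 comparisons, and 1556, 4553 and 3348 of all genes. With 2 or 3 libraries a group, small differences were not detectable in many genes.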
